A study of Mus musculus with 3 samples.

Results

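Glycolysis splits glucose into pyruvate in the cytosol and yields ATP without oxygen, and lactate dehydrogenase then converts pyruvate and lactate into each other. Several steps are run by enzymes that exist as isozymes, encoded by different genes, of which skeletal muscle fibers use their own set while most other cells use the ubiquitous form. Quiescent satellite cells are known for low glycolytic activity, which goes up on activation, and the muscle isozymes are known to be switched on as myoblasts differentiate. The genes described here are 10 that encode such enzymes, of 18193 genes on the array. They are Hk1 and Hk2 (hexokinase), Pfkl, Pfkm and Pfkp (phosphofructokinase), Tpi1 (triosephosphate isomerase), Pgam1 and Pgam2 (phosphoglycerate mutase), Eno3 (enolase) and Ldhb (lactate dehydrogenase). Each was read from the probe sets that the platform annotation gives to that gene alone, 20 in all of 45037, and its value was taken from the probe set of highest mean signal, with the other probe sets as a check.

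Muscle stem cells (MuSC, satellite cells) were sorted as CD34 and α7 integrin positive cells from muscle of C57BL/6 animals, wild type and aged 8 weeks. Fresh MuSC were not cultured, and their label adds the word vehicle without naming one. MuSC −OSM (the untreated culture) were kept for 3 days in 10% FBS. MuSC +OSM (the OSM culture) were kept likewise but with 100 ng/mL of Oncostatin M (OSM), a cytokine of the IL-6 family. Each condition had 1 array, so no difference has a replicate check and no test was possible. The array signal is a MAS5 intensity on a linear scale, which can be compared between arrays for 1 probe set but not between genes. Signals under a floor of 40 were raised to it before a log2 ratio was taken, a fold against such a signal is given as "at least", and a ratio of at least 2-fold is named higher or lower. In bulk RNA, fewer cells that express a gene and less RNA per cell cannot be told apart. Of 8 satellite cell markers, 8 lay above the floor in fresh MuSC and 6 in both cultures, where Cd34 and Calcr were under it. Of 8 mature fiber markers 7 were above it in fresh MuSC, with a summed signal of 3826 against 32852 in the untreated culture and 16030 with OSM. Myh1 and Actn3 made up most of these sums, whereas Mybpc2 was highest in fresh MuSC and Pvalb with OSM. Summed markers of fibroblasts, Schwann cells, leukocytes and endothelium were highest in fresh MuSC, and those of erythroid cells lay under the floor on every array. The 5 fibroblast markers with a probe set summed to 28640, 1053 and 2746 in the order fresh, untreated, OSM, and the 3 Schwann cell markers to 12130, 333 and 411. Leukocyte markers (7) summed to 1381, 238 and 242. Lyz2 alone gave 1204 of the sum in fresh MuSC, whereas Adgre1 and Csf1r were lowest there. Endothelial markers (6) summed to 1235, 130 and 108, and erythroid ones (3) to 11, 11 and 26, with none of these genes at a signal of 0. Their part in the results was not tested.

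Culture without OSM went with higher signals of most of these genes. At least 2-fold above fresh MuSC were 6 of the 10, Pfkl, Pfkm, Tpi1, Pgam1, Pgam2 and Eno3, against 15.0% of all 12755 measured genes. Of the 10, Ldhb alone was at least 2-fold lower, against 20.4% of all genes, and Hk1, Hk2 and Pfkp lay within 2-fold. The median log2 ratio was 1.94 for the 10 genes and -0.14 for all measured genes. With OSM the pattern was mixed, with Hk2 alone higher by at least 2-fold (6.07% of 11271 measured genes) and Pfkm alone lower (4.39%). Hk2 and Pfkm have 1 probe set each, so neither has a second reading. The median was 0.00 over the 10 genes, with a range from -1.66 to 1.22, and -0.01 over all genes. Against fresh MuSC, 5 of the 10 were higher in the OSM culture (13.8% of 12483 measured genes) and 1, Ldhb, was lower (17.2%), and the median was 1.40 against -0.14 for all genes. How genes divide depends on the scaling. Of all genes past 2-fold, those higher made up 42.4%, 58.0% and 44.5% in these comparisons, 70.2%, 72.0% and 80.4% once arrays were centred on the median, and 53.4%, 54.2% and 54.8% after quantile normalization. These comparisons share arrays, so that the untreated array enters the first and the second of them.

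**Figure D1:**
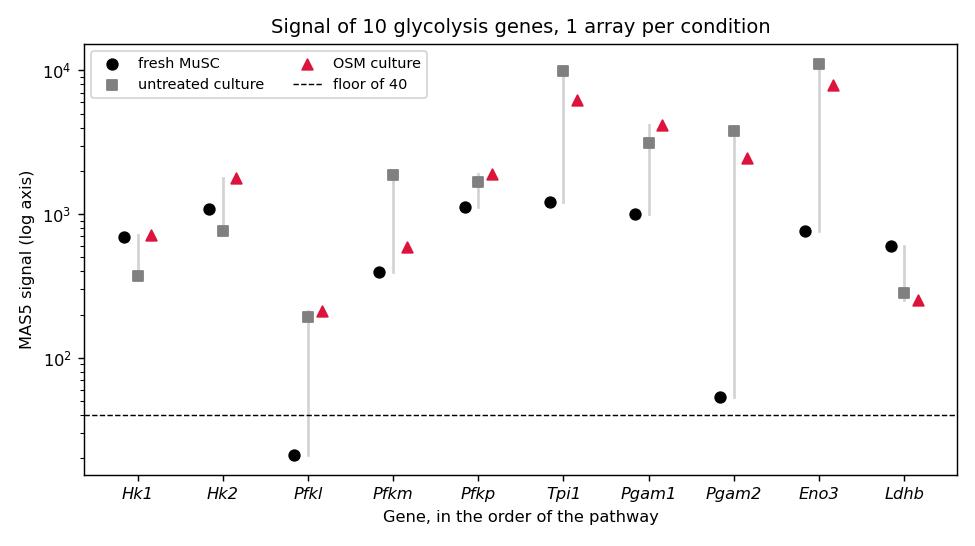
The 10 genes in pathway order, with their MAS5 signals on a log axis, from 1 array per condition. Black circles stand for fresh MuSC, gray squares for the untreated culture, red triangles for the OSM culture, gray lines for the range and the dashed line for the floor of 40. Pgam2 lies at 53 in fresh MuSC and at 3799 and 2453 in the cultures, Pfkm is high in the untreated culture alone at 1864, and Hk2 has its highest signal, 1781, in the OSM culture.

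Hexokinase commits glucose to the cell by phosphorylating it. Hk2, the form that prevails in muscle fibers, read 1080 in fresh MuSC, 764 in the untreated culture and 1781 in the OSM culture. Hk1, the form of most tissues, had 695, 370 and 715 in the same order. Both were thus lowest in the untreated culture, whereas 7 of the 8 genes of later steps were lowest in fresh MuSC at the probe set used. Another probe set of Pfkl and both others of Pfkp were lowest in the untreated culture instead. The signal with OSM was 2.33-fold that without OSM for Hk2 and 1.93-fold for Hk1. Against fresh MuSC, Hk2 was 1.41-fold lower in the untreated culture, a direction that turned when arrays were centred on the median (log2 ratio 0.06), and Hk1 was 1.88-fold lower. The difference between the isozymes in log2 ratio was 0.41 in culture without OSM over fresh MuSC and 0.27 in the OSM culture over the untreated one, both under 1.5-fold, and 0.68 in the OSM culture over fresh MuSC. The other Hk1 probe set lay near or under the floor at 53, 15 and 27.

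Phosphofructokinase, the main control point of the pathway, is a tetramer of subunits encoded by Pfkm (muscle), Pfkl (liver) and Pfkp (platelet). Pfkm had signals of 393 in fresh MuSC, 1864 in the untreated culture and 589 in the OSM culture. It was 4.74-fold higher in the untreated culture than in fresh MuSC and 3.16-fold lower with OSM, which left the OSM culture 0.58 above fresh MuSC on the log2 scale. Its ratio with OSM ranked 111th from the lowest of the 11271 measured genes, and it was the lowest of the 10. Pfkp had signals of 1124, 1664 and 1888, within 2-fold throughout. Its other probe sets, with 105, 60 and 135 and 95, 81 and 91, were lowest in the untreated culture, and the first of them was 2.25-fold higher with OSM, so a direction for Pfkp in culture is not settled either, nor is the size of its ratio with OSM. With OSM the log2 ratio of Pfkm minus that of Pfkp was -1.84, and from -2.83 to -1.83 over the 3 probe sets of Pfkp. Pfkl had low signals of 21, 191 and 211 and was at least 4.78-fold higher in the untreated culture than in fresh MuSC. Its other probe sets do not bear this out, with 110, 153 and 135 at the second and 140, 64 and 106 at the third, so the direction for Pfkl in culture is not settled. Pfkm minus Pfkl lay between -2.39 and -1.48 with OSM over the 3 probe sets of Pfkl.

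Triosephosphate isomerase, which interconverts the triose phosphates, is encoded by Tpi1 in all tissues and has no muscle form. Its signal was 1206 in fresh MuSC, 9880 in the untreated culture and 6253 in the OSM culture. The other probe sets gave 1123, 7988 and 6869 and 647, 6485 and 4536, so all 3 had the same order of arrays. Tpi1 was 8.19-fold higher in the untreated culture than in fresh MuSC (log2 ratio 3.03, and 2.83 and 3.33 at the others) and 1.58-fold lower with OSM. This ubiquitous enzyme was thus further above its fresh level in the untreated culture than Pfkm was.

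Phosphoglycerate mutase is a dimer of subunits encoded by Pgam1, the brain form of most tissues, and Pgam2, the muscle form. Pgam2 had the highest ratio of all 12755 measured genes in the untreated culture over fresh MuSC. Its signals were 53 in fresh MuSC, 3799 in the untreated culture and 2453 in the OSM culture, or 71.7-fold and 46.3-fold above fresh MuSC. With a floor of 183 these folds were at least 20.8 and 13.4, since its fresh signal is that low. The rank too rests on the floor, since Pgam2 ranked 13th of 18144 genes with no floor and 33rd of 7861 with a floor of 183. Its signal in fresh MuSC lay close to the median of that array, 53, and above 98.2% of probe sets in the untreated culture. Pgam1 had 999, 3108 and 4155 and was 3.11-fold higher in the untreated culture than in fresh MuSC. The mutases thus differed by 4.53 in log2 ratio in that comparison, and by 2.74 with the higher floor. With OSM, Pgam2 was 1.55-fold lower and Pgam1 1.34-fold higher than without, a difference of -1.05. Each has 1 probe set of its own, so there is no second reading of either.

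Enolase makes phosphoenolpyruvate, and Eno3 encodes its β subunit, which replaces the ubiquitous form in muscle. Eno3 had signals of 761 in fresh MuSC, 11151 in the untreated culture and 7921 in the OSM culture, so both cultures lay above fresh MuSC, 14.7-fold without and 10.4-fold with OSM. Its ratio without OSM ranked 121st of 12755, and it was 1.41-fold lower with OSM than without. Eno3 too has no second probe set. Ldhb, the heart subunit of lactate dehydrogenase, ran the other way, with 600 in fresh MuSC, 281 in the untreated culture and 254 in the OSM culture. It was 2.14-fold lower in the untreated culture than in fresh MuSC, and its other probe sets had log2 ratios from -2.42 to -1.28 against -1.09. With OSM its other probe sets had log2 ratios from 0.01 to 0.83 and the one used -0.15, so a direction for Ldhb with OSM is not settled.

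**Figure D2:**
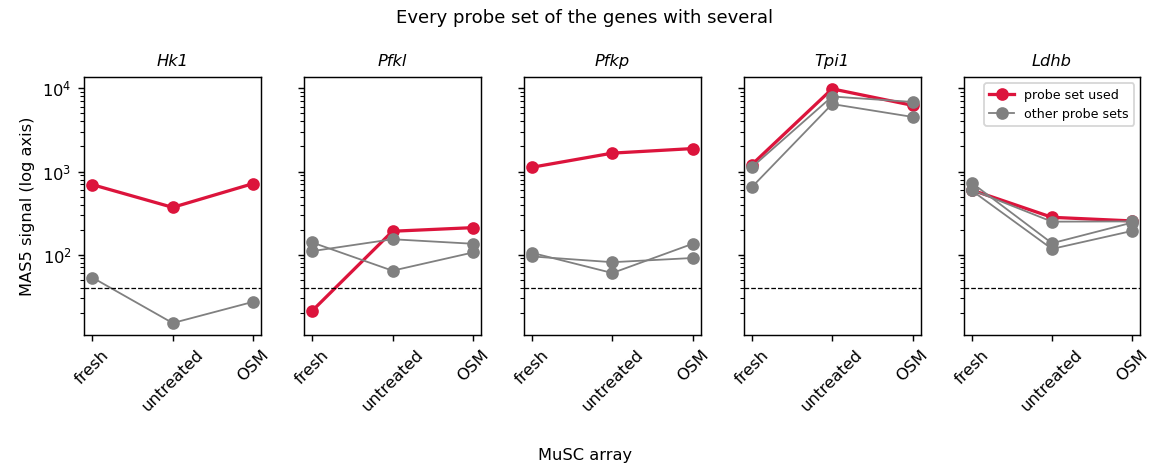
Signals (log axis) of all probe sets of the 5 genes with several, on the arrays of fresh MuSC, the untreated culture and the OSM culture, with the probe set used in red, the others in gray and the floor of 40 dashed. The 3 probe sets of Tpi1 and the 4 of Ldhb run alike from fresh MuSC to the untreated culture, whereas those of Pfkl cross.

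Shown are the promoters of the mutase genes, of Eno3 and of Hk2, a choice from the glycolysis genes. The 250 bases before the RefSeq start site were read on GRCm38.p6, which is not a build of the array. Capitals mark 3 motifs, searched on both strands: the E-box CANNTG, read by myogenic factors among others, the MEF2 motif, bound by a factor of muscle differentiation, and the core ACGTG of hypoxia response elements. An E-box CACGTG also holds that core.
Pgam2 (chr11:5803797-5804046, minus strand): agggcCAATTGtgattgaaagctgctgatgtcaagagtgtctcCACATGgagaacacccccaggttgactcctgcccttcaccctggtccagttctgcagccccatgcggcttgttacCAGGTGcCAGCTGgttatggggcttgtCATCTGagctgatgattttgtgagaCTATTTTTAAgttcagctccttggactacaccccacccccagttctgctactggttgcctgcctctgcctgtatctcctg
Pgam1 (chr19:41911621-41911870, plus strand): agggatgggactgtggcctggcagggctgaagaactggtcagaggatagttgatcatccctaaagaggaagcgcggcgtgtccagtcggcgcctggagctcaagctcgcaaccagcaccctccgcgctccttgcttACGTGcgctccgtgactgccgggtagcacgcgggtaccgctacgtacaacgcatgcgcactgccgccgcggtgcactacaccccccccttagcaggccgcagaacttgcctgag
Eno3 (chr11:70656926-70657175, plus strand): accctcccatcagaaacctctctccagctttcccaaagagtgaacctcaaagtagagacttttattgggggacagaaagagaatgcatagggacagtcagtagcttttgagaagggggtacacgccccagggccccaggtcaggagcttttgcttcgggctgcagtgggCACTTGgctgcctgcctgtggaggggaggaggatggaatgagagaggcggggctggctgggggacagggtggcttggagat
Hk2 (chr6:82774455-82774704, minus strand): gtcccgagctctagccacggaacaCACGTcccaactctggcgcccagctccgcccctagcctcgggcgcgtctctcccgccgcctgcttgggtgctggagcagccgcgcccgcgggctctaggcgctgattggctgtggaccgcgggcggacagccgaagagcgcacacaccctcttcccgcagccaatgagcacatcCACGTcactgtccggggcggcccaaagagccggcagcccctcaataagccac
The Pgam2 window held 5 E-boxes and 1 MEF2 motif, at -80 from the start. At least 1 E-box was in 66.2% of all 32851 windows, at least 5 in 1.15% and a MEF2 motif in 2.92%. The Pgam1 window held no E-box or MEF2 motif and 1 ACGTG, a core found in 16.6% of windows. Eno3 had 1 E-box at -81, and Hk2 had 2 ACGTG cores, at -226 and -52, and no E-box. Pfkm, not shown, has 4 start sites. The window of the first held 3 E-boxes and 2 overlapping ACGTG cores, and that of the second 1 core. Those of the others held 1 E-box each. Pfkl, also not shown, had 3 E-boxes. The GC content was 53.2% for Pgam2, 57.2% for Eno3, 64.0% for Pgam1 and 69.6% for Hk2, against a median of 52.4% over all windows. These matches describe letters only, and binding was not measured.

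As a class, the muscle isozymes Hk2, Pfkm, Pgam2 and Eno3 had a median log2 ratio of 3.06 in the untreated culture over fresh MuSC, and the ubiquitous Hk1, Pfkl, Pfkp, Pgam1 and Tpi1 had 1.64. Muscle isozymes thus lay 1.42 above, and 2.24 above without Hk2. Hk2 was the one of them not higher in culture, so leaving it out could only raise their median. Pair by pair, Hk2 lay 0.41 above Hk1, Pfkm 1.68 above Pfkp and Pgam2 4.53 above Pgam1. Pfkm minus Pfkl was -0.01, and up to 3.38 at the other Pfkl probe sets. Tpi1, which has no muscle form, is in no pair. Neither is Eno3, since the ubiquitous enolase gene Eno1 has no probe set of its own here. The class medians thus include genes without a counterpart. With OSM over without, the medians were -0.56 and 0.18, a difference of -0.74, although Hk2 had the highest ratio of all 10. Without Hk2, whose removal could only lower the muscle median here, the difference was -0.81. In the OSM culture over fresh MuSC both medians were close, at 2.05 and 2.06, but this closeness did not hold otherwise. The muscle isozymes lay 1.32 above without Hk2, whose own ratio was under their median. They lay 1.30 above with the floor at 183, 1.29 over the mean of probe sets and 1.69 at the second probe set. Pfkl, whose direction is not settled, enters the ubiquitous median. Pgam2, Eno3 and Pfkm were lowest in fresh MuSC and highest in the untreated culture. Tpi1, which has no muscle form, had this order too, so it was not particular to muscle isozymes. The aldolase gene Aldoa, of muscle and most tissues, and Ldha, for the muscle subunit of lactate dehydrogenase, also had it as reported. After quantile normalization their log2 ratios in the OSM culture over the untreated one turned to 0.28 and 0.003. Markers of muscle differentiation had this order of reported signals as well, apart from Myod1 and Des, which were highest with OSM. All 16 such markers lay above the floor on every array and were at least 2-fold higher in the untreated culture than in fresh MuSC. The share of all genes was 15.0%. With OSM 5 were at least 2-fold lower and 0 higher than without (4.39% and 6.07% of all genes). Their summed signal was 18187 in fresh MuSC, 193027 in the untreated culture and 114149 in the OSM culture. The part of differentiating cells in the values of the isozymes was not tested.

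**Figure D3:**
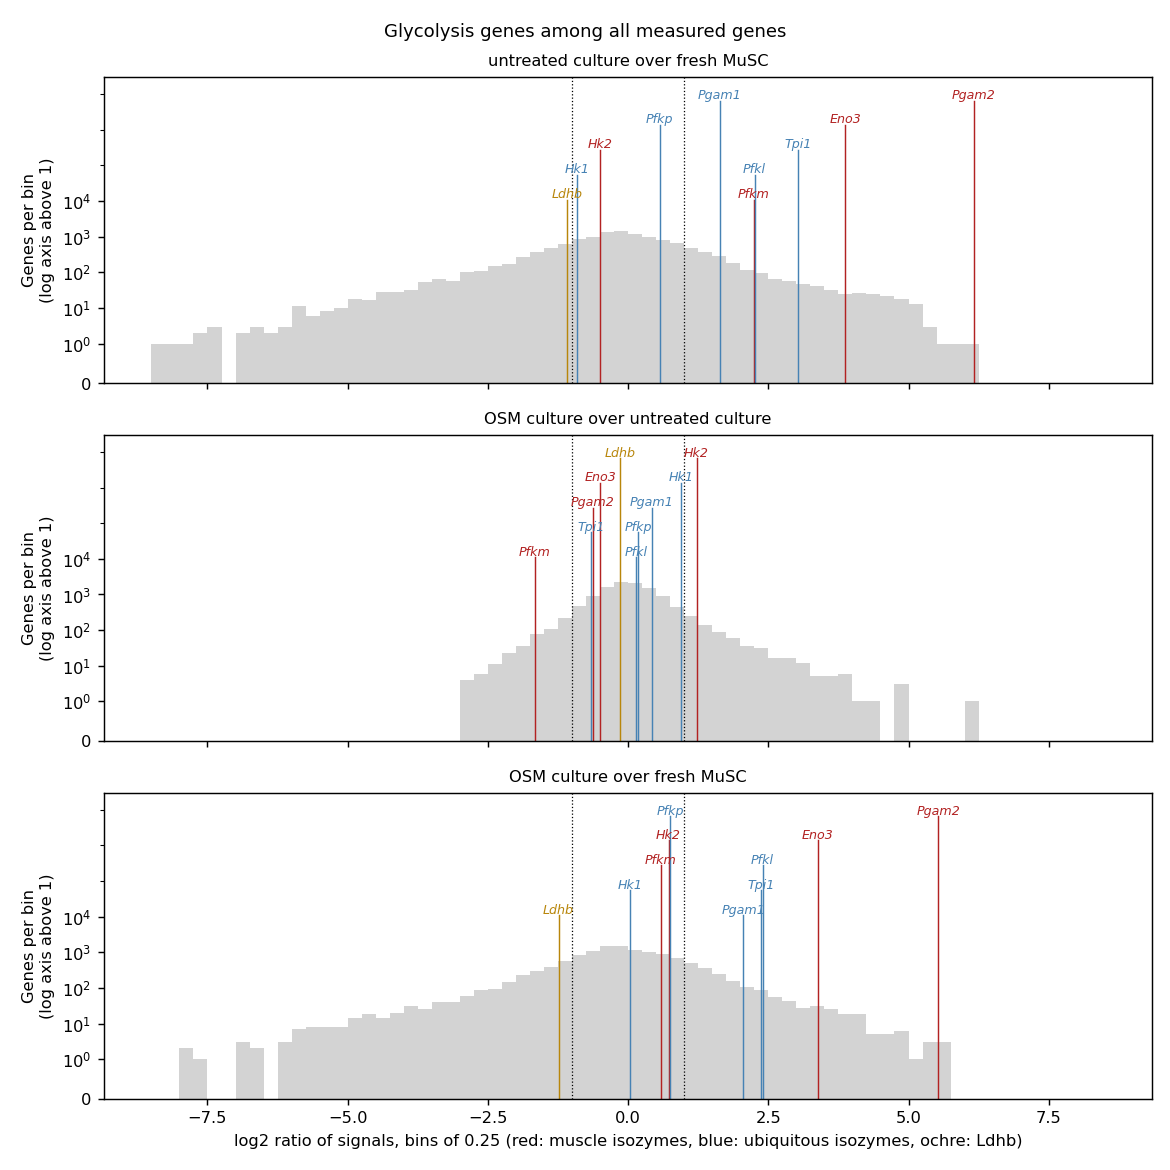
Number of measured genes per 0.25 of log2 ratio (gray bars, log axis above 1) in the 3 comparisons, with the muscle isozymes in red, the ubiquitous ones in blue and Ldhb in ochre, and dotted lines at 2-fold. Pgam2 lies at the right end at 6.16 in the untreated culture over fresh MuSC, and Pfkm and Hk2 lie outermost of the 10 in the OSM culture over the untreated one, at -1.66 and 1.22.

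Among 7398 genes above the floor on all arrays and at 200 or more on at least 1, those with the pattern nearest to Eno3 over the 3 arrays were Pkia, Myog and Prkag3, at distances of 0.07 to 0.11 in centred log2 signal. Myog encodes myogenin, a transcription factor of muscle differentiation, and had signals of 1530, 21248 and 14369, in the order fresh, untreated, OSM. Pgam2 had no close neighbor, with Prune2, Lmod3 and Neb at 0.63 to 0.74. Neb encodes nebulin and Lmod3 leiomodin, both of the sarcomere's thin filament. The nearest genes to Hk2 were Zadh2, Ralb and Pgm2, the last a phosphoglucomutase with signals of 191, 127 and 282. Plin3, Ifi30 and Usp37 were nearest to Ldhb, at 0.02 to 0.03. Distances over 3 arrays describe these arrays only.

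Of the other enzymes of glycolysis, Ldha, Aldoa, Pkm and Pgk1 were higher in both cultures than in fresh MuSC. Of 9 measured, 4 were at least 2-fold higher in the untreated culture than in fresh MuSC and 1 lower (15.0% and 20.4% of all genes). With OSM 0 of 8 were higher or lower (6.07% and 4.39% of all genes). In the OSM culture over fresh MuSC 4 of 7 were higher and 1 lower (13.8% and 17.2% of all genes). Ldha, the muscle subunit of lactate dehydrogenase, had signals of 2197 in fresh MuSC, 13347 in the untreated culture and 10447 in the OSM culture, opposite to Ldhb. Aldoa, the aldolase of muscle and most tissues, had 3988, 15037 and 10801, and the pyruvate kinase gene Pkm 687, 2808 and 2740. The phosphoglycerate kinase gene Pgk1 had 2435, 11410 and 9937. Hkdc1, a hexokinase-like gene, was the lower one, at 86, 4 and 8.

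Of 9 measured glucose and lactate transport genes, 4, all of them glucose transporters, were at least 2-fold lower and 1 was higher in the untreated culture than in fresh MuSC, against 20.4% and 15.0% of all genes. The insulin-responsive transporter gene Slc2a4 and Slc2a10 lay within 2-fold. The glucose transporter genes Slc2a1, Slc2a3 and Slc2a12 had signals of 3079, 625 and 741 in fresh MuSC and 1378, 63 and 63 in the untreated culture, and Slc2a8 had 204 and 78. Bsg, which encodes the chaperone of lactate transporters, was the higher one, at 325 and 838. With OSM 1 of 9 was higher, the lactate transporter gene Slc16a1 at 3078 against 1456, and 0 were lower. The shares of all genes were 6.07% and 4.39%. Against fresh MuSC 1 was higher and 2 were lower with OSM (13.8% and 17.2% of all genes). Measured were 5 genes that set the level of fructose 2,6-bisphosphate or oppose phosphofructokinase. Of these 1, Pfkfb2, was lower in the untreated culture than in fresh MuSC, at 77 against 193 (20.4% of all genes). In the other comparisons 0 passed 2-fold.

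Downstream of pyruvate, 12 genes of the pyruvate dehydrogenase complex and its control were measured. In the untreated culture 4 were at least 2-fold higher than in fresh MuSC and 2 lower, against 15.0% and 20.4% of all genes. The higher ones encode subunits of the complex, Pdha1, Pdhb, Dlat and Pdhx. Dlat had signals of 419 in fresh MuSC, 1469 in the untreated culture and 1008 in the OSM culture. The lower ones were Pdk4, a kinase that shuts the complex off, at 2833, 623 and 819, and the phosphatase gene Pdp2, at 138, 49 and 59. With OSM 0 of 11 passed 2-fold (6.07% of all genes were higher and 4.39% lower). In the OSM culture over fresh MuSC 4 were higher and 2 lower, against 13.8% and 17.2% of all genes. The 4 were Dlat and Pdhx with the kinase genes Pdk1 and Pdk3, at log2 ratios of 1.27, 1.65, 1.45 and 1.45, while Pdha1 and Pdhb, at 0.70 and 0.77, lay within 2-fold. Pdk4 and Pdp2 were the lower ones there too.

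The pentose phosphate pathway branches off after hexokinase. Of its 7 measured genes 3 were at least 2-fold higher with OSM than without and 0 were lower (6.07% and 4.39% of all genes). The dehydrogenase gene Pgd had signals of 543 in fresh MuSC, 1914 in the untreated culture and 4494 in the OSM culture, and H6pd, which encodes the hexose-6-phosphate dehydrogenase of the endoplasmic reticulum, had 747, 300 and 938. The transketolase gene Tkt had 1305, 311 and 847. H6pd and Tkt were thus lowest in the untreated culture, as the hexokinases were, whereas Pgd was lowest in fresh MuSC. Against fresh MuSC, 2 of the 7 were higher and 3 lower without OSM (15.0% and 20.4% of all genes). With OSM 3 were higher and 1 was lower (13.8% and 17.2% of all genes). The lower one, Rpia, was low in both cultures, at 828, 240 and 236 in the order fresh, untreated, OSM. Taldo1 had 789, 1773 and 2294 and was higher in both, and Rpe, higher with OSM, had 197, 315 and 422.

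Among 11 measured glycogen genes 5 were at least 2-fold higher and 2 lower in the untreated culture than in fresh MuSC. The shares of all genes were 15.0% and 20.4%. With OSM 2 of 10 were higher and 0 lower than without (6.07% and 4.39% of all genes). Gys1, the glycogen synthase of muscle, had signals of 40, 920 and 655 in the order fresh, untreated, OSM. The glycogenin gene Gyg had 369, 1930 and 1153. The phosphorylase gene of liver, Pygl, and Pgm2 were the genes higher with OSM, with Pygl at 91, 29 and 110. Against fresh MuSC 5 of 11 were higher and 0 lower with OSM (13.8% and 17.2% of all genes). Of 6 genes for factors known to drive glycolytic genes, 2 were higher with OSM and 1 was lower (6.07% and 4.39% of all genes). Hif1a, the oxygen-regulated factor whose known targets include Hk2, had signals of 2011, 2409 and 5109, and Epas1, its relative, had 858, 125 and 328. Esrrg, an orphan nuclear receptor, was lower with OSM, at 67, 206 and 68, but its other probe sets read 73, 40 and 28 and 36, 3 and 12, so that neither shows the high signal in the untreated culture. Myc had 4550, 435 and 375. Set against fresh MuSC, 2 of the 6 were higher and 2 lower without OSM (15.0% and 20.4% of all genes). With OSM 2 were higher and 3 lower (13.8% and 17.2% of all genes). Of the 9 genes in these 7 lists past 2-fold with OSM, 6 have other probe sets. For Hif1a, Pgd and Tkt at least 1 of these had the same direction, and for Slc16a1, Epas1 and Esrrg they lay at or under the floor in both cultures and gave no second reading.

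**Figure D4:**
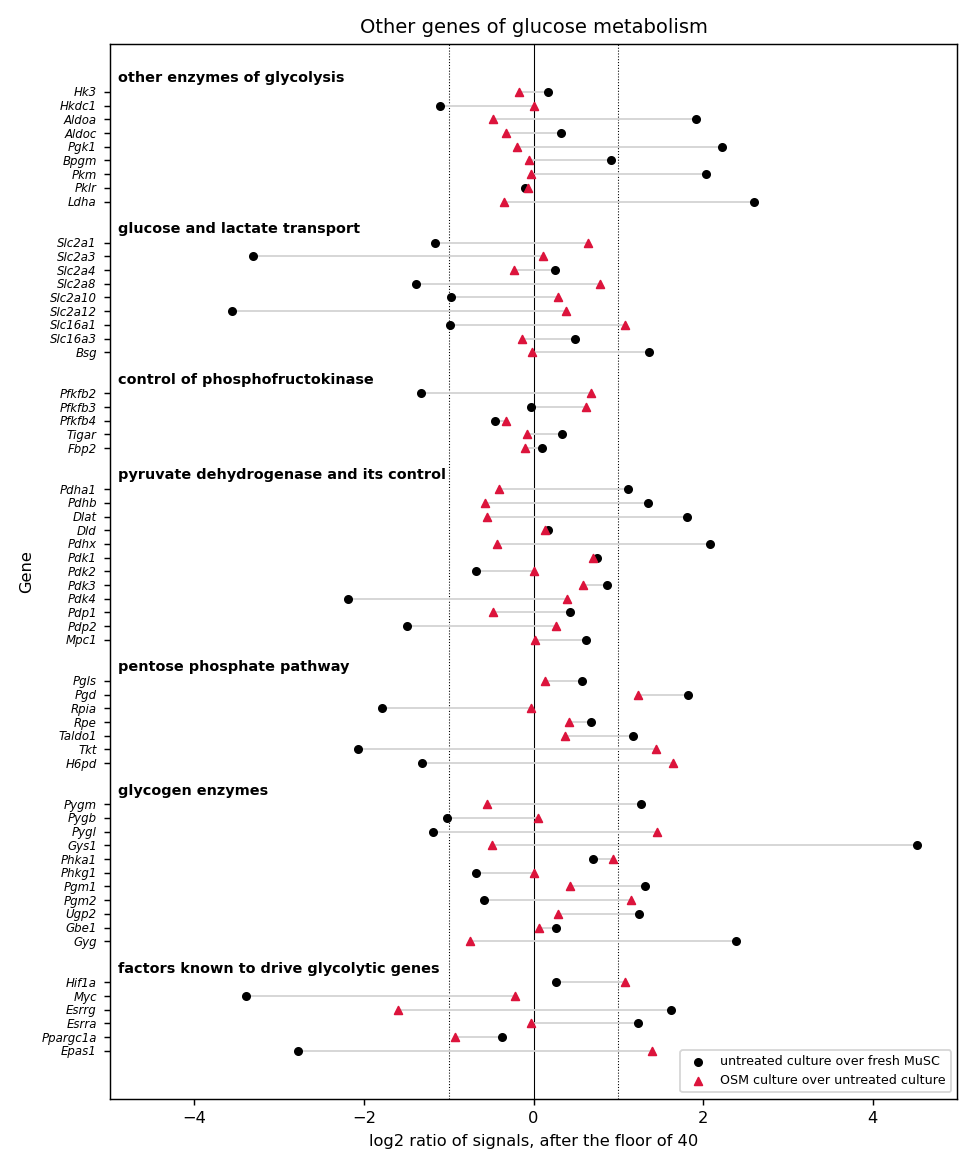
Log2 ratio of the measured genes in 7 lists around glycolysis, with the untreated culture over fresh MuSC as black circles and the OSM culture over the untreated one as red triangles, and dotted lines at 2-fold. Gys1 has the black circle farthest to the right, at 4.52, the glucose transporter gene Slc2a12 the one farthest to the left, at -3.56, and H6pd the red triangle farthest to the right, at 1.64.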

How the data were processed

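Sorted mouse MuSC gave total RNA for 3 Affymetrix MOE_430_2 arrays, 1 per condition, with 3′ IVT Express amplification. The intensity values the authors deposited are linear MAS5 signals, which MAS5 scales per array, and no MAS5 version is given in the sources. Sample labels gave the conditions. Python 3.11.15, numpy 2.4.6 and pandas 2.3.3 were used for the ratios and matplotlib 3.10.9 for plots. A total of 64 control probe sets were left out. The annotation names 1 gene for 34945 of 45037 probe sets, several for 932 and none for 9160, and 34741 of the first matched the RefSeq gene table, with 0 symbols changed. A gene was measured where at least 1 of both arrays compared lay above the floor of 40. Promoters were read from the RefSeq table for GRCm38.p6, which held all 10 genes. The script was tested on simulated data. The 10 genes, the gene lists and the naming rule were chosen with earlier results of these data known. The rule names the 10 genes, up to 6 members per list past 2-fold in any comparison, and the 3 genes nearest to Pgam2, Eno3, Hk2 and Ldhb. It was not kept in full, since more genes are named for pyruvate dehydrogenase and fewer for glycogen and the driving factors. Alternatives were the scaling, the floor, the probe set, the fold threshold and the class of Hk2.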

Additional observations from a re-analysis of the deposited data

How the results depend on the processing

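With 1 array per condition no result has an error from replicates, and no paired analysis was possible because each condition has 1 array. A value was taken to move where it changed by over 1.5-fold, and a count where it changed by over 1.5 times. Of 179 values of single genes under the alternatives, 154 stayed within this and 25 moved, and 0 called ones changed sign. Many of the 154 could not move. Hk2, Pfkm, Pgam1, Pgam2 and Eno3 have 1 probe set each, so the probe set settings repeat their values. A change of floor leaves as it was any ratio whose signals lie above both floors. Among 87 values of counts, medians and class differences 61 stayed within it. In the untreated culture over fresh MuSC the count of lower genes, 1, was 0 after median centring or at 3-fold and 2 at 1.5-fold. The median of the genes was 1.10 with the floor at 183, 1.09 over the mean of probe sets and 1.06 at the second probe set, and the muscle isozymes lay 2.49, 2.53 and 2.58 above the ubiquitous ones under these and 2.24 without Hk2. The single values that moved with the probe set were those of Pfkl, Pfkp and Ldhb. With the floor at 183 those of Pgam2 and Pfkl moved, in the untreated culture over fresh MuSC to 4.38 and 0.06 and in the OSM culture over fresh MuSC to 3.74 and 0.21, and with no floor Pfkl moved to 3.19 and 3.33. Centring moved 9 in the OSM culture over fresh MuSC, those of all the genes but Pfkl. In the OSM culture over the untreated one the count of higher genes, 1, was 2 after centring, at the second probe set and at 1.5-fold and 0 at 3-fold, and the count of lower genes was 3 at 1.5-fold. In the OSM culture over fresh MuSC centring gave 8 higher and 0 lower genes, 3-fold gave 0 lower, and the median was 2.10 after centring, 0.73 at the higher floor, 0.74 over the mean and 0.65 at the second probe set. Muscle isozymes then lay 1.30 above at the higher floor, 1.29 over the mean, 1.69 at the second probe set and 1.32 without Hk2. Centring moved the median log2 ratio of all genes from -0.14 to 0.37 in the untreated culture over fresh MuSC, from -0.01 to 0.15 in the OSM culture over the untreated one and from -0.14 to 0.57 in the OSM culture over fresh MuSC. Quantile normalization gave 0.10, -0.03 and 0.07. The 10 genes lay 2.08, 0.00 and 1.54 above these medians as reported, 1.94, 0.02 and 1.54 after centring, and 1.71, -0.04 and 1.21 after quantile normalization. Under the scalings all of the 10 kept their direction except Hk2 in the untreated culture over fresh MuSC and Ldhb in the OSM culture over the untreated one after centring, and Hk1 in the OSM culture over fresh MuSC after quantile normalization. Other glycolysis enzymes turned from lower to higher in the OSM culture over the untreated one. After quantile normalization Aldoa, Pgk1, Pkm and Ldha read 0.28, 0.21, 0.08 and 0.003, and after centring Pkm and Bpgm read 0.13 and 0.12. The cause of these shifts was not tested.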

Other observations

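Gapdh, the glyceraldehyde phosphate dehydrogenase gene of the pathway, has no probe set of its own among those compared and is read on this array by control probe sets, which entered no comparison. Its 3′ control read 4175 in fresh MuSC, 10342 in the untreated culture and 8206 with OSM, its middle control 2338, 7880 and 7092, and its 5′ control 3073, 9080 and 9071. All 3 were thus lowest in fresh MuSC, as Tpi1 and Pgam1 were. Of 3 more probe sets that the annotation gives to Gapdh and other genes together, 2 were lowest there as well, at 4772, 10839 and 8640 and at 16, 347 and 225, and 1 was highest there, at 128, 83 and 51. The ratio of the 3′ to the 5′ signal, which reflects RNA integrity, was 1.36 in fresh MuSC, 1.14 in the untreated culture and 0.90 in the OSM culture for Gapdh, and 2.35, 1.40 and 1.41 for β-actin. Its part in the differences between fresh and cultured MuSC was not tested. A probe set that the annotation gives to Hk1 and 5 other genes had signals of 18910, 10245 and 9107 and did not share the higher signal of the Hk1 probe set with OSM. Which of the 6 genes it reads is not known, so it is no second reading of Hk1.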
